A study of Mus musculus with 11 samples.

Results

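Tumour-associated macrophages (TAMs) from MYC-PyMT mice were compared with TAMs from control-PyMT mice across all genes of the deposited expression table. The comparison rests on 6 of the 11 libraries of the series, 3 of control TAMs (mice 1, 3 and 5) and 3 of MYC TAMs (mice 2, 4 and 6), each from a different mouse, and on 17475 genes. The libraries were chosen by label: every gene was tested, and no measured value decided which libraries entered. Earlier results of these data were known when this comparison and the gene lists below were chosen. Counts over the lists are therefore descriptions and not independent tests. The remaining 5 libraries are mammary tissue macrophages (MTMs) of the same mice. They entered the fit, where they share the estimate of the spread, and are not described here for their own sake.

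All mice were females backcrossed to B6 that carried PyMT, a viral oncogene that causes mammary tumours. Mice of both groups were lethally irradiated at 7 weeks of age, received bone marrow from wild-type B6 donors, changed to a low protein diet 2 weeks later, and were analysed after 6 weeks on it. The control genotype is PyMT with wild-type marrow. The MYC genotype adds S100a8-cre, a Cre recombinase driven by the S100a8 promoter, and Rosa26-LSL-MYC, a MYC transgene that stays silent until Cre removes a stop cassette. By the labels, irradiation, a transfer of wild-type B6 marrow and the diet were common to both groups, and an effect of the diet could not be tested. The sex of the donors is not given, and Y-linked transcripts differed between the groups, as described below. Whether the donors were alike in both groups is therefore not known. Wild-type donor marrow carries neither the Cre nor the transgene, and the labels do not say how many macrophages of each host came from the donor. TAMs were sorted as live CD45+ F4/80+ Vcam+ cells that lacked SiglecF, Ly6G, B220 and Ly6C.

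Macrophages take up dying cells, debris and lipid, and break them down in lysosomes, which a vacuolar proton pump (V-ATPase) keeps acidic. Lysosome biogenesis is known to be driven by the MiT/TFE transcription factors, which Rag GTPases on the lysosome hold in check when amino acids are plentiful. Macrophages also show peptides to helper T cells on MHC class II molecules, whose genes need the coactivator CIITA, and release cytokines and chemokines through NF-kB and interferon pathways. Macrophages rich in lipid in tumours, fat and atherosclerotic plaques are known for a shared set of genes that includes Gpnmb, Trem2, Spp1, Fabp4 and Fabp5.

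Levels are the deposited log2 values, on which 1 unit is a doubling. A difference is MYC minus control TAMs, given with its standard error from limma, a linear model with moderated variances, and with a p adjusted by Benjamini-Hochberg over all 17475 genes; the threshold was 0.05. There were 3 mice per group throughout. A fold is given only where both group means are at 1 or more, since the deposited scale compresses low levels. Gene lists are described by how many measured members passed the threshold. These counts are to be read beside the shares over all genes, 3.89% higher and 12.0% lower in MYC TAMs. "Held in every leave-one-out fit" means that a call also passed when each of the 6 TAM libraries was left out in turn.

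An estimated 32.9 to 43.7 M reads per TAM library fell in genes, from the steps between low values. The MYC TAM library of mouse 4 stood apart: 581 genes had no read there, against 2072 to 3522 in the other 10 libraries. Of 1820 genes without a read in at least 8 of the other libraries, 93.1% had reads in this one, with a median of 10 reads. The same share was 8.78% to 34.0% in the other libraries, each against its own set of genes, so very low values of mouse 4 were read with care. The groups also differed in Y-linked transcripts although all mice are labelled female. Ddx3y, a Y-linked RNA helicase gene, was at 0.01, 0.01 and 0.04 in control TAMs and at 4.37, 4.74 and 4.50 in MYC TAMs. Eif2s3y and Kdm5d followed the same pattern. The labels do not give the sex of the marrow donors, so a difference in donor or host cells and the genotype cannot be told apart.

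The markers of the gate and of the lineage were checked first. Vcam1 encodes the adhesion molecule on which TAMs were sorted (chromosome 3, 116109949 to 116129688, minus strand, GRCm38). It was at 8.60, 7.64 and 8.57 in control mice 1, 3 and 5, and at 0.96, 1.61 and 2.82 in MYC mice 2, 4 and 6. The RNA of the gating marker was thus far lower in every MYC TAM library, with no overlap between the groups. It was nearest the lower end of the scale in mouse 2, while mouse 6 still had an estimated 1700 reads. The difference of -6.47 ± 0.54 was an 88.9-fold lower level (limma, adjusted p = 8.96e-05) and the largest fall among the genes named by rank.

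The macrophage lineage was otherwise visible in both groups. Emr1, the older symbol of Adgre1, encodes F4/80. It was at 9.93, 9.40 and 9.56 in control TAMs and at 7.50, 7.57 and 8.37 in MYC TAMs, a fall of 3.51-fold (adjusted p = 0.00148). Csf1r, the receptor for the growth factor CSF1 that macrophages depend on, fell from 10.74, 10.43 and 10.25 to 7.59, 8.03 and 8.09, or 5.94-fold (adjusted p = 6.34e-05). Both genes stayed among the more abundant transcripts of MYC TAMs while falling without overlap. Cd68, a glycoprotein of macrophage lysosomes, went the other way, from 8.51, 8.17 and 8.42 to 10.41, 10.36 and 10.18 (1.95 ± 0.15, adjusted p = 6.61e-05). Of 29 macrophage identity genes 7 rose and 6 fell; 4 and 5 of these held in every leave-one-out fit, and with the mean level of epithelial markers as a covariate 1 rose and 2 fell. Over all genes, 3.89% were higher and 12.0% lower in MYC TAMs.

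The genes of the genotype label were read next. Myc was at 2.66, 3.18 and 3.11 in control TAMs and at 2.16, 1.92 and 1.78 in MYC TAMs, a difference of -1.02 ± 0.19 (adjusted p = 0.00583). Whether reads of the transgene are counted in Myc is not given in the sources used here. S100a8, a calcium-binding protein of neutrophils and monocytes whose promoter drives the Cre, was at 3.82, 3.44 and 2.52 against 6.18, 4.52 and 5.07. Its difference of 2.00 ± 0.57 (adjusted p = 0.043) did not pass when any single TAM library was left out, with an adjusted p of up to 0.145 (without control mouse 5). Its partner gene S100a9 was below 1 in all 6 libraries.

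Over all 17475 genes, 2778 (15.9%) passed the threshold, 680 higher and 2098 lower in MYC TAMs. Of these, 1573 differed by at least 1 log2 unit, and 127 rose and 322 fell by at least 2 units. The groups did not overlap for 30.1% of all genes, and for 15.8% they did not overlap and also passed. The latter were 2768 of the 2778 calls, so a lack of overlap adds little to a call. The median difference over all genes was -0.02. Of the called genes 24.5% were higher in MYC TAMs. That share was 41.6% after quantile normalisation and 69.9% after each library was centred on its median. Centring shifted the median over all genes to 0.19. Which direction prevailed among called genes therefore rests on the scaling, whereas no gene described below as risen or fallen changed sign under either scaling.

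**Figure D1:**
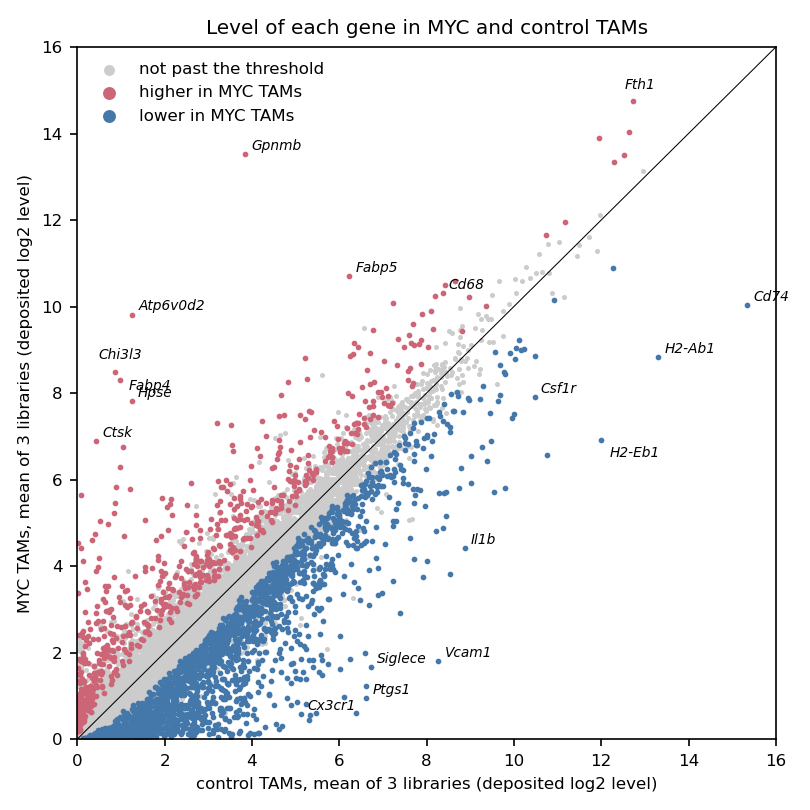
Mean deposited log2 level of every gene in the 3 control TAM libraries (horizontal axis) and the 3 MYC TAM libraries (vertical axis), with genes past the adjusted p threshold of 0.05 in colour and equal levels on the diagonal. Gpnmb lies farthest above the diagonal, at 3.84 in control and 13.53 in MYC TAMs, and Cd74 and Vcam1 lie far below it.

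Other cell types were checked beside these results, because a sorted population can hold some RNA of its neighbours. In bulk samples, fewer cells of a type and less RNA per cell cannot be told apart. Mammary epithelial markers were lower in MYC TAMs: of 30 measured, 20 fell and none rose, with a median difference of -2.44. Their mean level was 4.25, 4.90 and 4.10 in control mice 1, 3 and 5 and 3.21, 2.20 and 1.25 in MYC mice 2, 4 and 6. Their summed level on the linear scale was 1878 to 4040 in control and 86.7 to 783 in MYC TAMs. Without control mouse 3 the number that fell was 12, and without MYC mouse 4 it was 13. When the epithelial mean of each library was added to the model as a covariate, 893 genes passed, 357 higher and 536 lower. That covariate separates the TAM groups without overlap, so its effect and that of the genotype cannot be told apart. The counts with it are given beside the lists.

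Markers of T and natural killer (NK) cells were lower too. Of 23 measured, 13 fell and 1 rose (median -1.23); 11 of the falls held in every leave-one-out fit, and no member fell with the epithelial covariate. Cd3g, a chain of the T cell receptor complex, was at 4.94, 3.44 and 4.13 in control TAMs and at 0.05, 0.30 and 0.05 in MYC TAMs (-4.04 ± 0.48, adjusted p = 5.86e-04). Nkg7, of cytotoxic granules, was at 5.54, 4.20 and 4.32 against 0.06, 0.76 and 0.06. Of the list, 4 members, Cd3e, Gzma, Prf1 and Ctla4, were without reads in all 3 MYC TAM libraries. Other members kept some there, such as Klrk1 with an estimated 9, 48 and 7 in mice 2, 4 and 6. The member that rose was Il7r, the interleukin-7 receptor, from 2.30, 1.90 and 2.25 to 5.21, 5.31 and 6.14 (10.6-fold, limma adjusted p = 1.62e-04).

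Dendritic cell markers fell in 11 of 20 members and none rose (median -0.78), for example the transcription factor gene Batf3, from 3.71, 3.81 and 3.96 to 1.03, 1.46 and 1.79. The summed level of this list was 601 to 757 in control and 195 to 291 in MYC TAMs. With the epithelial covariate 3 fell. Of 18 fibroblast markers 1 fell, Fap, a surface protease, and its call was kept only without control mouse 3 among the 6 leave-one-out fits; without control mouse 1, 3 other members fell. The list had no fall with the epithelial covariate, and its summed level was 18.8 to 102 against 5.26 to 16.5. The groups did not overlap in the mean level of the epithelial, T and NK, dendritic or fibroblast list. An exact permutation test of each mean gave p = 0.1, the smallest that 3 against 3 libraries allow. Many other lists gave the same p in this test, among them macrophage identity, glycolysis and Toll-like receptors. That outcome is therefore not particular to these cell types. The part of these cells in the results below was not tested beyond the covariate values.

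**Figure D2:**
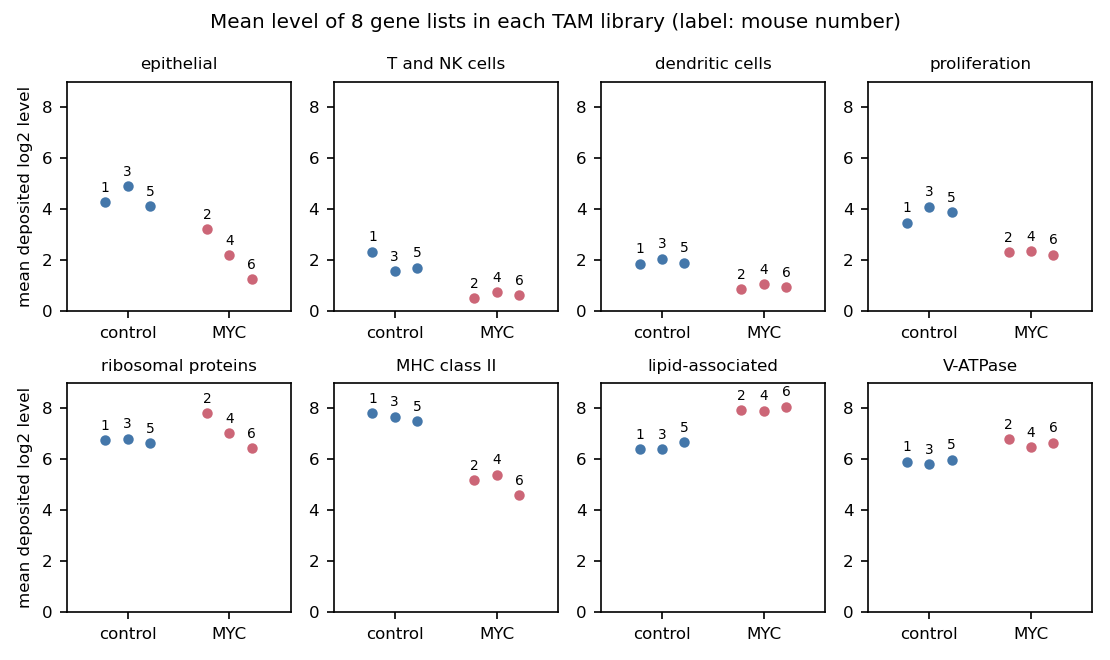
Mean deposited log2 level of 8 gene lists (vertical axis) in each control and MYC TAM library, with points labelled by mouse number. Epithelial means run from 4.10 to 4.90 in control and from 1.25 to 3.21 in MYC TAMs, whereas lipid-associated and V-ATPase means are higher in all 3 MYC libraries.

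Gpnmb, a gene known from lipid-laden macrophages, rose more than any other gene. It encodes a transmembrane glycoprotein of lysosomes and phagosomes (chromosome 6, 49036546 to 49070929, plus strand, GRCm38). It was at 3.32, 3.61 and 4.59 in control TAMs and at 13.50, 13.24 and 13.86 in MYC TAMs. The 3 MYC libraries lay close together and far above every control library. The difference of 9.69 ± 0.40 was 827-fold (limma, adjusted p = 2.21e-06). By the estimated reads, Gpnmb took 5.44%, 4.72% and 7.35% of all reads in genes in MYC mice 2, 4 and 6, and 0.0116% or less in the control mice. Gpnmb was the fourth most abundant gene of MYC TAMs. The next rises in order of size were those of Atp6v0d2, Chi3l3, Fabp4, Hpse and Ctsk, of which Fabp4 alone is on the lipid-associated list.

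Of 25 measured lipid-associated genes 14 rose and 3 fell (median 1.06); 10 rises and 2 falls held in every leave-one-out fit. With the epithelial covariate 6 rose and 2 fell, and the median was 1.03. Fabp4, a fatty acid carrier of adipocytes and macrophages, was at 0.08, 1.49 and 1.36 in control TAMs and at 8.46, 7.60 and 8.86 in MYC TAMs (7.33 ± 0.43, adjusted p = 1.42e-05). Its relative Fabp5 rose from 5.58, 5.94 and 7.17 to 10.63, 10.20 and 11.29, or 22.3-fold (adjusted p = 2.56e-04). Both carriers were thus high in every MYC library. Fabp4 was low in the control libraries, with an estimated 6, 246 and 204 reads in mice 1, 3 and 5.

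Spp1 (osteopontin, a secreted matrix protein), Plin2 (the coat of lipid droplets) and Lgals3 (the lectin galectin-3) rose by 3.07 ± 0.39, 2.81 ± 0.35 and 2.60 ± 0.18. Trem2, the lipid-sensing receptor that marks this state, rose less, from 2.37, 1.55 and 2.59 to 3.60, 3.35 and 3.48 (1.31 ± 0.25, adjusted p = 0.00722). Its signalling partner Tyrobp was at 13.06, 12.73 and 13.11 against 13.39, 12.91 and 13.11 and did not pass (0.17 ± 0.27, adjusted p = 0.692). Apoe, the lipoprotein of cholesterol export, did not pass either (0.15 ± 0.27). Among the 3 falls was Lpl, the lipoprotein lipase that frees fatty acids from circulating fat. It went from 4.95, 4.75 and 4.97 to 0.97, 1.05 and 1.85 (-3.60 ± 0.33, adjusted p = 1.36e-04). Itgax, which encodes CD11c, fell by 1.44 ± 0.31 (adjusted p = 0.0117). The list thus did not move as a block: its intracellular lipid carriers were up and its extracellular lipase was down.

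Lysosomal genes had a similar mixture with more rises than falls. Of 45 measured, 19 rose and 5 fell (median 0.56). Of these, 7 and 3 held in every leave-one-out fit; the number that rose was 8 without control mouse 3, 10 without control mouse 5 and 12 without MYC mouse 2, and the number that fell was 3 without either of the last pair, MYC mouse 4 or control mouse 1. Of the list, 4 rose and 4 fell with the epithelial covariate. Ctsk, the cathepsin that cleaves collagen, was at 0.38, 0.51 and 0.40 in control TAMs and at 7.03, 5.63 and 8.03 in MYC TAMs (6.46 ± 0.63, adjusted p = 1.87e-04). Mcoln3, a cation channel of endosomes and lysosomes, rose from 0.79, 0.42 and 1.71 to 5.66, 6.54 and 6.70 (5.32 ± 0.44, adjusted p = 8.87e-05). These rises started low on the scale, Ctsk from 0.51 or less and Mcoln3 from 0.42 to 1.71 in control TAMs.

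Abundant lysosomal enzymes moved by smaller steps and in both directions. Ctsl, a cysteine protease, rose 7.29-fold, Gla, which removes galactose from glycolipids, 4.90-fold, and Smpd1, the acid sphingomyelinase, 2.24-fold. Ctsd, an aspartic protease, was at 11.99, 11.32 and 12.51 in control TAMs and at 13.63, 13.78 and 14.27 in MYC TAMs (1.95 ± 0.37, adjusted p = 0.00697), and was among the most abundant genes of MYC TAMs. Ctsc, which activates granule proteases, and Gm2a, an activator protein of ganglioside breakdown, fell by 1.75 ± 0.29 and 1.16 ± 0.20.

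Subunits of the V-ATPase rose in 8 of 19 members and fell in 1 (median 0.62); 6 rises and the fall held in every leave-one-out fit. With the epithelial covariate 5 rose and 1 fell. Atp6v0d2, a subunit of the membrane ring that is largely restricted to osteoclasts and some macrophages (chromosome 4, 19876841 to 19922605, minus strand, GRCm38), stood far apart from the others. It was at 1.01, 1.00 and 1.75 in control TAMs and at 9.60, 9.94 and 9.89 in MYC TAMs, a 377-fold rise (8.56 ± 0.32, adjusted p = 1.33e-06). The next rises were those of the cytosolic subunit genes Atp6v1c1 (3.37-fold), Atp6v1g1 (2.74-fold) and Atp6v1a (2.47-fold). Its widely expressed counterpart Atp6v0d1 did not pass. Atp6v0a2, a membrane subunit of the Golgi and endosomes, fell from 5.96, 6.41 and 6.20 to 4.11, 4.48 and 4.87 (-1.71 ± 0.21, adjusted p = 7.26e-04).

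The E-box CACGTG, which reads the same on both strands, is the core of the element that MiT/TFE factors bind and is also the core of MYC-MAX sites. In RefSeq promoter windows (250 bases before to 50 after an annotated start, GRCm38.p6) it was found in 7.15% of all 32851 windows. It was found in 4 of 17 windows of 13 V-ATPase genes and in 12 of 40 windows of 36 lysosomal genes; the other genes of these lists were not matched to the table. From the members that rose, Atp6v1a and Ctsd, are given with the E-box in capitals, 5′ to 3′ along the gene. The stretches are chr16:44139331-44139450 for Atp6v1a and chr7:142387958-142388077 for Ctsd, both on the minus strand and upstream of the start. A match describes letters only; binding was not measured.
Atp6v1a: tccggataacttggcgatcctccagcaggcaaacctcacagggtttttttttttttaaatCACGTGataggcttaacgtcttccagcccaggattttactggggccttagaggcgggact
Ctsd: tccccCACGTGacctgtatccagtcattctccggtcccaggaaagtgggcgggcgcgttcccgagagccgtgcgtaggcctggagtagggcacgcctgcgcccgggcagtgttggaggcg

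The regulators of this programme had no common direction. Of 28 MiT/TFE and Rag genes 5 rose (17.9%, against 3.89% over all genes) and 3 fell (10.7%, against 12.0%). The median was 0.01. With the epithelial covariate none rose and 2 fell, and 3 rose without control mouse 1 or 3. Rragd, a Rag GTPase that is itself a target of MiT/TFE factors, rose from 0.50, 0.55 and 0.74 to 2.27, 2.63 and 3.29 (2.13 ± 0.24, adjusted p = 4.67e-04). Fnip2, the partner of the Rag regulator folliculin, rose from 1.44, 1.50 and 2.21 to 3.99, 4.07 and 3.83 (2.25 ± 0.25, adjusted p = 4.17e-04). Both were higher in each MYC library than in any control library. Rptor, the adaptor of the mTORC1 kinase, fell from 2.86, 2.99 and 2.63 to 1.04, 1.72 and 1.89 (-1.28 ± 0.23, adjusted p = 0.00599). Sesn1, a leucine sensor of the same pathway, fell by 1.49 ± 0.22.

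Autophagy genes rose in 7 of 27 members and none fell (median 0.35); 4 rises held in every leave-one-out fit, with 4 in all without control mouse 3, and 4 rose with the epithelial covariate. The 4 that held are Gabarapl1, which coats autophagosomes (1.89 ± 0.20), Bnip3l, a receptor that marks mitochondria for removal (2.02 ± 0.22), Optn, a receptor for ubiquitin-tagged cargo (2.08 ± 0.31), and Atg12, of the conjugation machinery (0.98 ± 0.14). Their adjusted p was 2.96e-04, 3.21e-04, 0.00190 and 0.00167. Gabarapl1 was at 3.71, 3.59 and 3.88 in control TAMs and at 5.96, 5.62 and 5.26 in MYC TAMs. The groups did not overlap for any of the 4 genes, which was so for 2768 of the 2778 genes that passed.

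**Figure D3:**
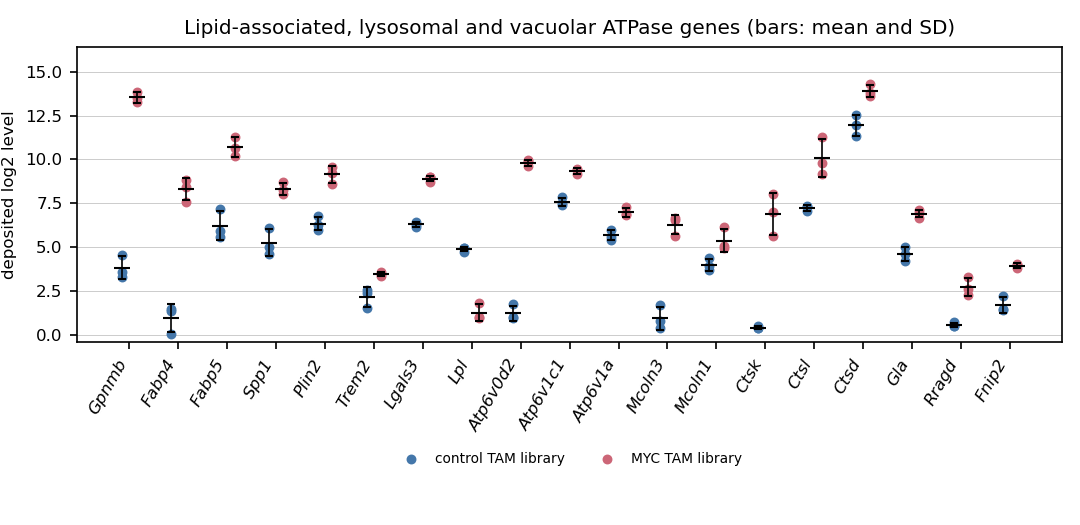
Deposited log2 level (vertical axis) of 19 lipid-associated, lysosomal and V-ATPase genes in each of the 3 control TAM (blue) and 3 MYC TAM (red) libraries, with bars for mean and SD. Gpnmb, Fabp4, Atp6v0d2 and Ctsk rise from the lower part of the scale, while Lpl falls.

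MHC class II genes were lower in MYC TAMs. Of 14 measured genes 11 fell and 1 rose (median -2.80), and 10 of the falls held in every leave-one-out fit; with the epithelial covariate 5 fell and the median was -2.54. Cd74, the invariant chain that guards the class II groove, was the most abundant gene of control TAMs. It was at 15.57, 15.45 and 14.98 there and at 10.52, 10.47 and 9.10 in MYC TAMs (-5.30 ± 0.45, 39.5-fold, adjusted p = 8.96e-05). By estimated reads it took 4.19% to 6.37% of all reads in genes in control TAMs and 0.0699% to 0.179% in MYC TAMs. The groups did not overlap, and mouse 6 was the lowest.

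The class II chains fell with it. H2-Eb1 (chromosome 17, 34305867 to 34316674, plus strand, GRCm38) went from 12.27, 12.06 and 11.67 to 7.51, 7.45 and 5.80 (33.9-fold, adjusted p = 1.26e-04). H2-Ab1 went from 13.60, 13.39 and 12.92 to 9.45, 9.34 and 7.73 (22.1-fold, adjusted p = 2.50e-04), and H2-Aa fell 18.1-fold. In all 3 chains the MYC library of mouse 6 was the lowest. H2-DMa, which helps load peptides, fell 8.55-fold, from 9.17, 9.03 and 8.82 to 5.98, 6.31 and 5.45. H2-Oa, which restrains loading, went from 3.57, 3.22 and 2.83 to 0.04, 0.28 and 0.37. Ciita, the coactivator of these genes, fell from 4.35, 4.62 and 4.31 to 1.10, 1.84 and 1.10 (-3.08 ± 0.36, adjusted p = 5.43e-04). The costimulator gene Cd86 fell by 2.18 ± 0.25.

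Of 22 MHC class I genes 1 rose and 2 fell (median -0.35). These shares, 4.55% higher and 9.09% lower, were close to the 3.89% and 12.0% over all genes. Without MYC mouse 6, 5 members fell, and with the epithelial covariate 1 fell. H2-D1, a classical class I chain, was at 11.21, 11.18 and 11.12 against 12.04, 11.88 and 11.93. Its rise of 0.78 ± 0.18 (adjusted p = 0.0182) lost the call without MYC mouse 4 or control mouse 3 or 5, with an adjusted p of up to 0.0746. H2-M2, a non-classical chain, fell from 5.89, 5.96 and 6.91 to 1.59, 2.07 and 1.87 (21.3-fold, adjusted p = 8.94e-05). The difference between the class I and class II lists was not tested.

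Class II promoters carry a conserved module that ends in a Y box, an inverted CCAAT sequence read as ATTGG and bound by NF-Y. CCAAT or ATTGG was found in 7 of 10 windows of 9 class II genes, and in 37.4% of all 32851 windows. It was also found in 25 of 32 windows of 31 proliferation genes. The stretches just upstream of the start of H2-Eb1 (chr17:34305747-34305866, plus strand) and H2-Aa (chr17:34287824-34287943, minus strand) are shown with ATTGG and CCAAT in capitals, since both genes fell together.
H2-Eb1: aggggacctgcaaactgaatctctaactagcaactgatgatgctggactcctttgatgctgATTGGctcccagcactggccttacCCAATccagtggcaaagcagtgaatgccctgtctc
H2-Aa: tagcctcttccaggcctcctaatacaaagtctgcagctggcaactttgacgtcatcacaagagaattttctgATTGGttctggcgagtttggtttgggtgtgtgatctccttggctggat

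Cytokine and chemokine genes had more falls than rises, while most members did not pass. Falls also outnumbered rises over all genes, with 12.0% lower and 3.89% higher. Of 36 NF-kB and cytokine genes 13 fell and 2 rose (median -0.47); 6 falls and 1 rise held in every leave-one-out fit, and with the epithelial covariate 1 fell. Il1b, the precursor of interleukin-1 beta, was at 8.29, 8.74 and 9.59 in control TAMs and at 4.90, 3.98 and 4.36 in MYC TAMs (-4.46 ± 0.54, adjusted p = 6.39e-04). Its decoy receptor Il1r2 fell by 2.56 ± 0.46 and the interleukin-12 subunit gene Il12b by 2.42 ± 0.44. Nfkbie, an inhibitor that NF-kB itself induces, fell from 4.03, 4.52 and 4.35 to 1.76, 2.09 and 2.16 (-2.29 ± 0.20, adjusted p = 1.02e-04). Leaving out control mouse 3 or 5 reduced the number that fell to 6, MYC mouse 2 to 7, and MYC mouse 4 or 6 to 8.

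Of 25 chemokine genes 9 fell and none rose (median -0.40), 5 of them in every leave-one-out fit; without MYC mouse 6 the number was 5, and with the epithelial covariate none fell. Cxcl10, which attracts T cells and is induced by interferon, was at 3.95, 4.51 and 4.89 against 2.00, 1.42 and 1.37 (-2.86 ± 0.40, adjusted p = 0.00139). Ccl12, which attracts monocytes and has close relatives in its gene cluster, fell by 3.54 ± 0.60. Interferon genes fell in 10 of 42 members and none rose (median -0.70). Only 3 held in every leave-one-out fit, with 4 to 6 falls without MYC mouse 2 or 4 or control mouse 3 or 5, and 1 member fell with the epithelial covariate. Besides Cxcl10 the 3 were the guanylate-binding protein genes Gbp3 (-1.40 ± 0.24) and Gbp4 (-1.86 ± 0.31).

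Receptors that let macrophages sense chemokines and other attractants fell in 8 of 24 members and rose in 3 (median -0.30); 6 falls and no rise held in every leave-one-out fit, with 1 rise without MYC mouse 2 or control mouse 1 and none without control mouse 3. Of these receptors, 3 fell and none rose with the epithelial covariate. Cx3cr1, the fractalkine receptor, was at 5.17, 5.06 and 5.16 in control TAMs and at 0.36, 0.41 and 0.95 in MYC TAMs (-4.55 ± 0.22, adjusted p = 5.29e-06). Ccr1, a receptor for inflammatory chemokines, fell from 4.31, 4.33 and 4.08 to 1.49, 1.39 and 2.59 (5.33-fold, adjusted p = 0.00136). P2ry6 and P2ry12, receptors for extracellular nucleotides, fell by 1.61 ± 0.25 and 1.46 ± 0.28. Complement genes fell in 9 of 24 members and rose in 3 (median -0.37), with 5 falls without MYC mouse 2 or 4 or control mouse 3, and 1 rise without either MYC mouse or control mouse 5. With the epithelial covariate 1 fell and 1 rose. Cfb, factor B of the alternative pathway, fell 4.64-fold, and C1qa, a chain of the classical initiator, 3.07-fold.

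Inhibitory receptors and checkpoint genes split, with 5 higher and 8 lower of 25 (median -0.49); 4 rises and all 8 falls held in every leave-one-out fit, and with the epithelial covariate 2 rose and 5 fell. Siglece, a sialic acid receptor that restrains myeloid activation, fell from 6.95, 6.95 and 6.29 to 1.56, 1.54 and 1.88 (33.6-fold, adjusted p = 1.35e-05). Cd274, which encodes PD-L1, the ligand of the T cell checkpoint PD-1, rose from 2.47, 2.29 and 2.80 to 5.29, 5.80 and 5.18 (7.46-fold, 2.90 ± 0.27, adjusted p = 1.51e-04). Icosl, a costimulatory ligand, fell by 3.17 log2 units, and Pilra, an inhibitory receptor, fell 7.98-fold. Cd274 was thus high in the same libraries in which class II, Cd86 and Icosl were low.

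Receptors for the uptake of dying cells and debris also split, with 7 higher and 8 lower of 30; 4 of each held in every leave-one-out fit, and with the epithelial covariate 1 rose and 8 fell. Without control mouse 3 the numbers were 4 and 5. Stab1, a scavenger receptor of resident macrophages, fell from 6.76, 6.24 and 6.44 to 2.83, 2.88 and 3.91 (9.64-fold, adjusted p = 1.06e-04). Elmo1, an adaptor for engulfment, fell by 1.47 ± 0.14. Cd300lf, a phosphatidylserine receptor, rose from 3.32, 3.08 and 3.63 to 6.16, 5.79 and 5.51 (5.57-fold, adjusted p = 9.24e-04), and its relative Cd300a rose 3.71-fold. Of 21 Fc receptor and ITAM signalling genes 4 rose and 7 fell, and without control mouse 3 only 2 rose; with the epithelial covariate none rose and 3 fell. Fcgr1, the high-affinity IgG receptor, fell 4.01-fold, from 6.65, 6.33 and 6.28 to 4.30, 3.97 and 4.97.

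Of 27 adhesion and integrin genes 12, among them Vcam1, fell and 1 rose (median -0.43), and the others did not pass. Of the falls 8 held in every leave-one-out fit; with the epithelial covariate 5 members fell. Itgal, the LFA-1 alpha chain, fell from 6.17, 6.53 and 6.29 to 3.47, 3.86 and 3.56 (6.50-fold, adjusted p = 6.61e-05), while its beta chain gene Itgb2 did not pass (0.11 ± 0.30). Cdh1 (E-cadherin), which is on the epithelial list as well, fell 12.2-fold. Cadm1, an adhesion molecule that dendritic cells also use, fell 5.18-fold.

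Genes that remodel matrix rose in 7 and fell in 7 of 24 members; 6 rises and 3 falls held in every leave-one-out fit, and 4 fell without control mouse 3 or 5 or MYC mouse 2. Of the list, 3 rose and 4 fell with the epithelial covariate. Hpse, the heparanase that cuts heparan sulphate, was at 0.75, 0.99 and 2.00 in control TAMs and at 7.62, 7.87 and 7.96 in MYC TAMs (94.9-fold, adjusted p = 5.92e-06). Collagen-cleaving enzymes went opposite ways: Ctsk rose as given above, and Mmp13, a collagenase, fell from 6.66, 6.49 and 6.68 to 0.70, 1.10 and 1.88 (41.9-fold, adjusted p = 2.56e-04). Mmp2, a gelatinase, fell 24.3-fold, from 6.78, 6.20 and 6.80 to 1.58, 1.79 and 2.60. Adamdec1, a metalloprotease of tissue macrophages, was at 4.86, 3.82 and 5.20 against 0.02, 0.14 and 0.54.

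Atp6v0d2 and Ctsk are best known from osteoclasts, the bone-resorbing relatives of macrophages. Of 18 osteoclast-type genes 3 rose, those 2 and the tetraspanin-like gene Tm4sf19 (3.01 ± 0.27), and 7 fell. The fusion genes Ocstamp and Dcstamp went from 2.94, 3.29 and 3.08 to 0.24, 0.14 and 0.25 and from 2.82, 3.04 and 2.06 to 0.03, 0.33 and 0.23. Acp5, the tartrate-resistant phosphatase, fell from 8.98, 8.33 and 8.56 to 7.62, 7.67 and 7.46 (2.05-fold, adjusted p = 0.00356). All 3 rises and these 3 falls held in every leave-one-out fit; the other 4 falls did not, leaving 3 falls without control mouse 3 and 4 without control mouse 5; 5 members rose without MYC mouse 6. With the epithelial covariate 3 rose and 2 fell.

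**Figure D4:**
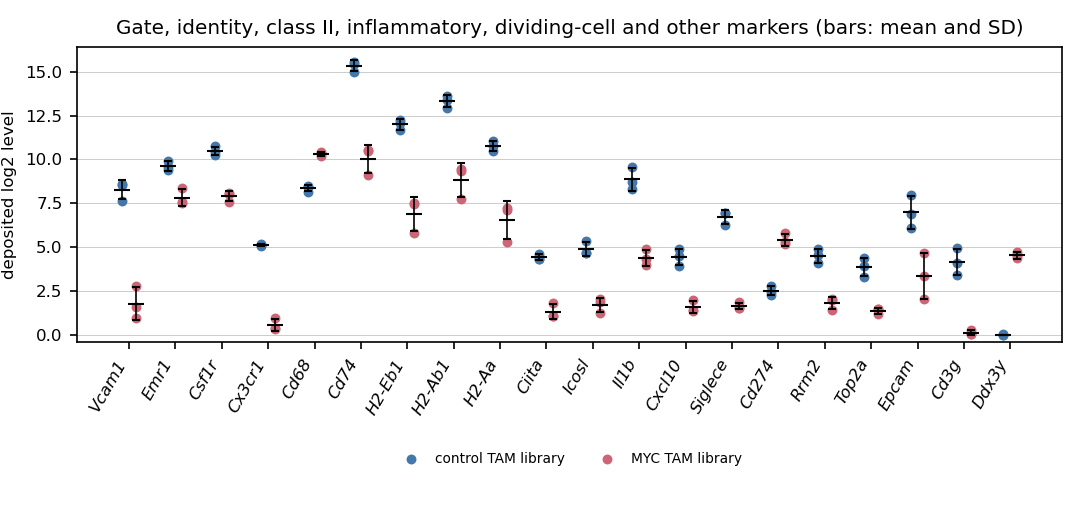
Deposited log2 level (vertical axis) of 20 genes of the sort gate, macrophage identity, MHC class II, inflammation, cell division and other cell types in each of the 3 control TAM (blue) and 3 MYC TAM (red) libraries, with bars for mean and SD. Cd68, Cd274 and Ddx3y are higher in all 3 MYC libraries, and the other 17 genes are lower.

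The cholesterol efflux list also holds genes of fatty acid synthesis, phospholipid remodelling and receptor turnover. Of its 13 genes 7 fell and 2 rose (median -1.08), and 5 falls and both rises held in every leave-one-out fit. Scd1, Scd2, Mylip and Lpcat3 were among the 5 falls, so the counts do not describe cholesterol export alone. The summed level of the list was 961 to 1643 in control and 1352 to 1709 in MYC TAMs. With the epithelial covariate 4 fell and none rose. Scd1 and Scd2, the desaturases that make oleate, went from 3.14, 4.92 and 3.57 to 0.47, 0.49 and 0.13 and from 2.83, 3.77 and 3.30 to 0.38, 0.62 and 1.13. Mylip, which marks the LDL receptor for degradation, fell 3.76-fold, and Lpcat3, which remodels membrane phospholipids, 2.03-fold. Pltp, the phospholipid transfer protein, rose instead, from 5.17, 4.20 and 5.09 to 8.66, 7.80 and 8.31 (10.9-fold, adjusted p = 5.48e-04). Cholesterol synthesis genes fell in 3 of 24 members, and none of those calls held in every leave-one-out fit: the number was 0 without MYC mouse 2 or control mouse 3 or 5, 1 without MYC mouse 4, 5 without control mouse 1 and 7 without MYC mouse 6. A single member, or 1 of 24, fell with the epithelial covariate. The 3 falls as fitted were a share close to the 12.0% over all genes. Fatty acid oxidation genes had 3 of 23 members higher and 3 lower, none of which held in every leave-one-out fit or passed with the epithelial covariate.

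Hypoxia and glycolysis genes had no common direction. Hilpda, a lipid droplet protein induced by hypoxia, rose from 2.94, 3.17 and 3.56 to 6.34, 5.76 and 5.77 (6.67-fold, adjusted p = 1.67e-04). Ndrg1, a stress-induced gene, rose 3.55-fold. Car9, a carbonic anhydrase and common hypoxia marker, fell from 3.98, 4.43 and 4.21 to 2.12, 2.48 and 2.51 (3.58-fold, adjusted p = 2.16e-04). Over the list 3 of 23 rose and 7 fell, with 3 or 4 falls without control mouse 3 or 5 or MYC mouse 2 or 4; with the epithelial covariate 2 rose and 2 fell. Of 25 glycolysis genes 3 rose (1 without MYC mouse 2 or 4 or control mouse 1) and 6 fell, among them Ldhb, a lactate dehydrogenase chain (-1.77 ± 0.21), and Slc2a3, a glucose transporter (-1.25 ± 0.18); with the covariate 2 fell and none rose. Oxidative phosphorylation genes had no rise and 2 falls in 58 members, neither of which held in every leave-one-out fit, and 4 falls without MYC mouse 2; with the covariate 6 rose.

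Genes of dividing cells were lower with near uniformity. Of 35 proliferation genes 30 fell and none rose (median -1.61), and 25 of the falls held in every leave-one-out fit. Rrm2, a subunit of ribonucleotide reductase, was at 4.10, 4.90 and 4.58 in control TAMs and at 1.98, 2.06 and 1.43 in MYC TAMs (6.52-fold, adjusted p = 1.42e-04). Plk1 and Aurka, kinases of mitosis, fell 5.64-fold and 3.51-fold, and Mcm2 and Mcm3, of the replicative helicase, 3.53-fold and 2.62-fold. The epithelial markers moved with this list: with their mean as a covariate 3 members fell, and the median was -1.03. The list's mean level was 3.45, 4.08 and 3.86 in control and 2.30, 2.33 and 2.20 in MYC TAMs.

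Genes of biosynthesis, many of them known MYC targets, had more falls than rises, and most members did not pass. The shares over all genes, 12.0% lower and 3.89% higher, lean the same way. Of 38 MYC target genes 9 fell and 1 rose (median -0.44); 4 falls held in every leave-one-out fit, and the number was 5 without control mouse 3 or 5, as it was after quantile normalisation or centring. With the epithelial covariate 3 fell and 1 rose. Bop1, a ribosome assembly factor, fell from 5.20, 5.43 and 5.17 to 3.49, 3.48 and 4.30 (2.85-fold, adjusted p = 0.00194), and Cad, which starts pyrimidine synthesis, fell 2.25-fold. Of 20 aminoacyl-tRNA synthetase genes, which charge tRNAs with amino acids, 11 fell and none rose (median -0.63). Of these 6 held in every leave-one-out fit, with 6 or 7 falls without control mouse 3 or 5 or MYC mouse 2 or 4 and 6 after centring; with the epithelial covariate 4 fell. Nars, for asparagine, fell from 7.83, 8.01 and 8.00 to 6.79, 6.80 and 7.28 (1.99-fold, adjusted p = 0.00254), and Iars, for isoleucine, fell 3.33-fold.

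Unfolded protein response genes fell in 10 of 20 members and none rose (median -0.80); 7 falls held in every leave-one-out fit, and with the epithelial covariate 2 members fell. Herpud1, of endoplasmic reticulum protein disposal, fell from 7.03, 7.33 and 7.65 to 5.49, 5.66 and 5.23 (3.66-fold, adjusted p = 0.00128), and Pdia4, a disulphide isomerase, 2.94-fold. Amino acid response genes fell in 6 of 26 members and none rose (median -0.38); with the epithelial covariate none fell and the median was -0.05. An example is Slc7a5, a leucine transporter, from 2.91, 3.85 and 3.10 to 1.61, 1.10 and 0.83 (-2.11 ± 0.31, adjusted p = 0.00193). Ribosomal protein genes, many with processed pseudogenes that may share reads, had 1 of 78 higher and none lower (median 0.29), and that call did not hold in every leave-one-out fit, with 5 higher without MYC mouse 6. Their mean level was 7.82, 7.04 and 6.44 in MYC mice 2, 4 and 6, against 6.63 to 6.81 in controls. The MYC libraries were thus more spread than the control libraries, and in the same order as for the epithelial markers; with that covariate 42 ribosomal protein genes rose.

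**Figure D5:**
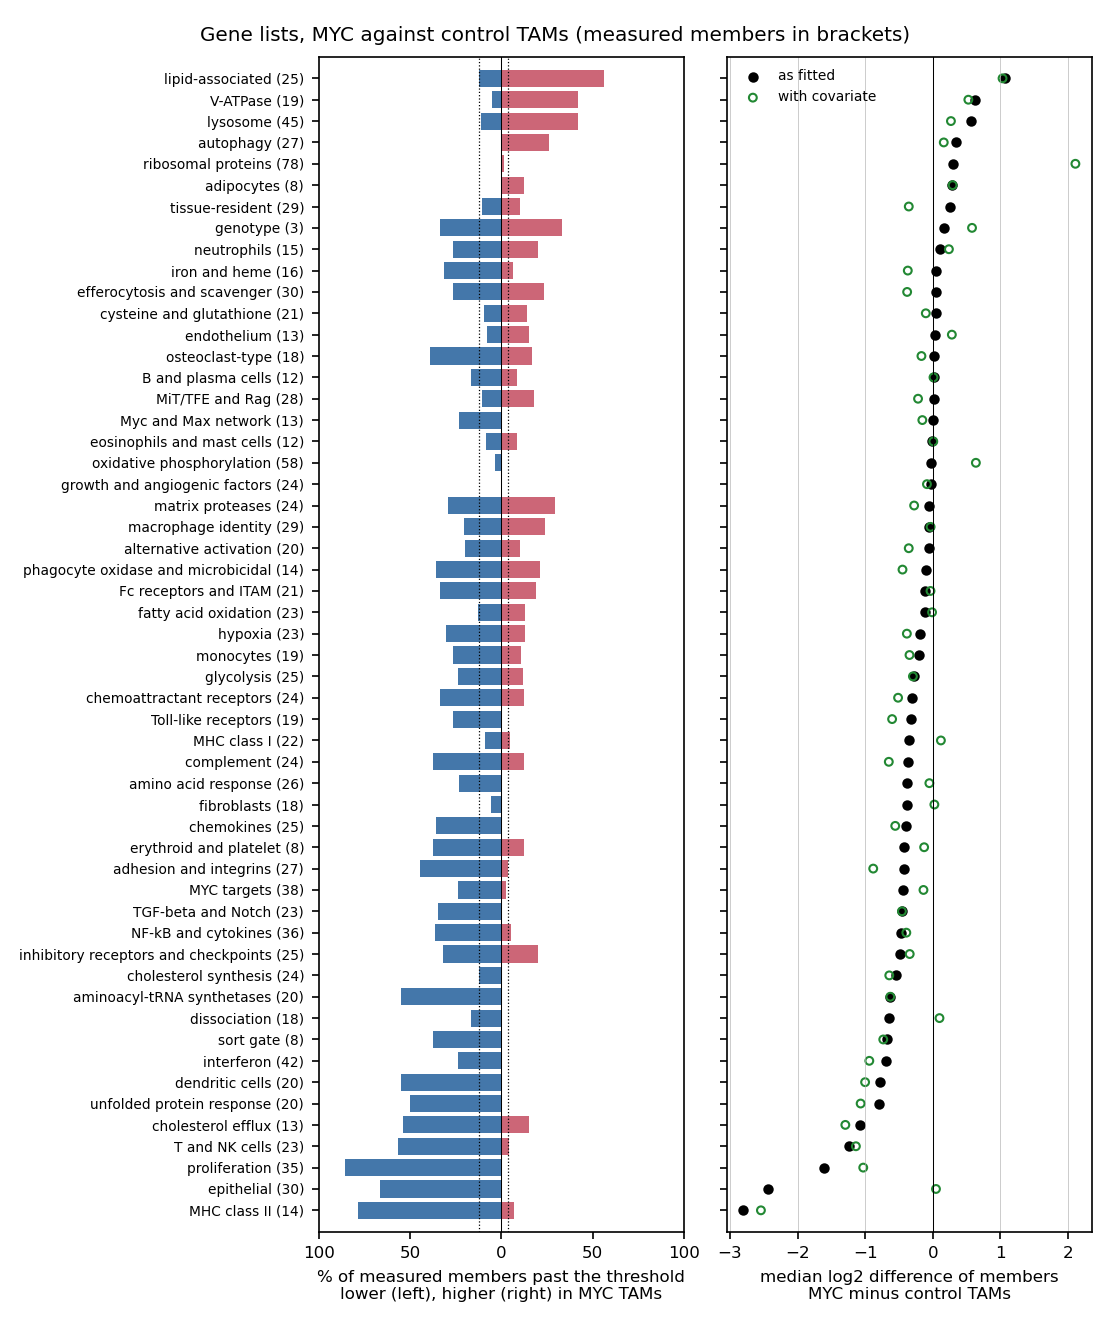
Left, percent of the measured members of each list that passed the threshold lower (blue) or higher (red) in MYC TAMs, with dotted lines at 12.0% and 3.89%, the shares over all genes. Right, median log2 difference of each list as fitted (filled) and with the epithelial level as a covariate (open): MHC class II is at -2.80 and -2.54, and epithelial markers at -2.44 and 0.05.

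Some of the strongest single differences lay outside these pathways. Ptgs1, the constitutive cyclooxygenase that starts prostaglandin synthesis, fell from 6.99, 6.39 and 6.47 to 0.60, 1.16 and 1.08 (-5.66 ± 0.21, adjusted p = 1.33e-06). Hpgd, which inactivates prostaglandins, fell from 6.40, 5.62 and 6.28 to 0.18, 0.69 and 2.04 (-5.13 ± 0.54, adjusted p = 2.95e-04). Enzymes at both ends of that pathway were therefore low in each MYC library. Haao, of tryptophan breakdown, was at 5.55, 5.58 and 4.81 against 0.08, 0.74 and 0.50, and Tmem176a, a membrane protein of antigen-presenting cells, fell 26.3-fold.

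Chi3l3, the older symbol of Chil3, encodes the chitinase-like protein Ym1 and has a close copy that may share its reads. It rose from 1.16, 0.99 and 0.46 to 9.26, 8.14 and 8.08 (7.62 ± 0.60, adjusted p = 6.92e-05). Other genes that mark alternatively activated macrophages beside it fell: Retnla went from 5.20, 5.09 and 5.22 to 1.43, 3.11 and 0.09, and Mgl2, a lectin, from 4.29, 3.90 and 3.57 to 1.02, 1.21 and 0.91. The list had 2 of 20 members higher and 4 lower, and 2 and 2 with the epithelial covariate. Cdo1, which degrades cysteine, rose from 0.42, 1.07 and 1.67 to 6.79, 7.00 and 6.49 (5.70 ± 0.48, adjusted p = 8.98e-05). Gstm1, a glutathione transferase, rose 12.1-fold, without overlap between the groups.

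Fth1, the heavy chain of the iron store ferritin, was the most abundant gene of MYC TAMs, at 15.15, 14.76 and 14.33 against 12.82, 12.68 and 12.71 in control TAMs (4.05-fold, adjusted p = 0.00193). It took 5.45% to 9.14% of the estimated reads in genes there. Trf, the iron carrier transferrin and also an epithelial marker, fell 4.75-fold. F13a1, a coagulation factor chain on both the tissue-resident and the monocyte list, rose 12.3-fold, from 1.08, 0.92 and 1.24 to 4.49, 4.94 and 4.66. Of 29 tissue-resident genes 3 rose and 3 fell, Stab1 and Mgl2 among the falls, and with the epithelial covariate 1 rose and 2 fell. Of 19 monocyte genes 2 rose and 5 fell, and 2 and 2 with the covariate. Grap, an adaptor protein, rose from 0.87, 0.71 and 0.91 to 5.21, 5.30 and 5.18 and had the smallest adjusted p of all genes (8.13e-07).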

How the data were processed

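Messenger RNA was sequenced from sorted TAMs and MTMs; per the labels' protocols, 500 ng of RNA with integrity numbers of 3.3 to 9.6 was poly-A selected and prepared with a stranded kit and 8 PCR cycles. The deposited table holds log2 expression values that the authors made from their reads. Per the submitters' processing notes, HISAT2, DESeq2 and the builds mm10 and GRCm38.p5 were used; the role of each, and whether counting used strand, are not given in the sources used here. By their spacing, the values fit a log2 scale with 1.0003 added to a read number scaled by depth and gene length: 99.08% of 17426 low values were whole reads within a tolerance of 0.05, and this spacing, with exon lengths (GENCODE, 93.52% of genes), gave the read estimates. These cover counting error only.

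Differences were fitted with limma 3.58.1 (R 4.3.3) to all 11 libraries, with 4 group means and a variance trend, two-sided. Tested on simulated data for this comparison (17475 genes), 32 of 100 genes changed by 1 log2 unit and 79 of 100 changed by 2 were recovered, with 6 false calls. There were 17 alternatives, 16 planned and 1 (without MYC mouse 4, only genes with a mean of 1 or more) chosen after seeing the data. Replicates were not copies: over 1729 genes the SD of their log2 differences was 0.485 to 0.815. The members and the 54 gene lists (1137 genes measured, 38 not, 19 matched by another symbol; some on several lists) were chosen with earlier results of these data known. Genes were named by rule: the 20 largest rises and falls without overlap, the 10 smallest adjusted p, per list the 5 smallest adjusted p and the highest level, the gate and genotype genes, and the 10 highest levels per group. Named outside it, after their values were seen, were Spp1, Plin2, Trem2, Ciita, H2-Aa, Cd86, Itgax, Ctsc, Gm2a, Atp6v0d1, Atp6v0c, Eif2s3y, Kdm5d, Cd3e, Gzma, Prf1, Ctla4 and, in figures, other members of the lists. Left out of naming were 26 entries whose names had become dates or numbers and 68 that share a symbol. RefSeq sequences are credited to GRCm38.p6. Python 3.11.15 (numpy 2.4.6, pandas 2.3.3, matplotlib 3.10.9) was used.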

Additional observations from a re-analysis of the deposited data

How the results depend on the processing

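Of the 2778 calls (680 higher, 2098 lower), 1547 (391 and 1156) were counted with only the 6 TAM libraries, where fewer libraries estimate the spread, and 893 (357 and 536) with the epithelial covariate. Centring each library on its median gave 5029 calls with 3516 higher, and quantile normalisation 1107 higher; the cause was not tested. Leaving out 1 TAM library at a time gave 1734 to 2996 calls, 449 to 939 higher and 1285 to 2057 lower; the fewest came without control mouse 3. No fixed paired fit could be had, as control and MYC TAMs come from different mice; with the mouse as a random replicate block, shared with the MTMs, 2813 genes passed (683 higher, 2130 lower). Other variance, pseudocount and filter settings gave 2293 to 3032 calls. Of 240 named genes past the threshold, 190 passed without each library in turn, 104 with the epithelial covariate and 97 in every setting that could test them. Signs reversed for Fbl (0.080), Lcn2 (0.34) and Wfdc18 (0.66) with the covariate and for Mycl1 (0.10) after centring, none past the threshold there. Without MYC mouse 4 and genes under a mean of 1, 2260 passed. Depth limits genes with a few reads, above all against mouse 4.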

Other observations

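Litaf, which encodes a membrane protein of late endosomes, was at 6.14, 6.42 and 6.61 in control TAMs and at 0.61, 0.65 and 0.54 in MYC TAMs (-5.79 ± 1.32, limma adjusted p = 0.0158). It passed in 12 of 17 alternatives. With only the 6 TAM libraries, where the MTMs do not enter the estimate of the spread, its limma adjusted p was 3.08e-04. The call was lost without MYC mouse 4 or control mouse 3 or 5 (adjusted p of up to 0.0630), with array weights (0.118) and with the epithelial covariate (0.279). Atp6v0c, the proteolipid of the V-ATPase ring, was at 6.22, 6.27 and 6.42 in control TAMs and at 7.72, 0.71 and 1.37 in MYC mice 2, 4 and 6. The MYC libraries lay on both sides of the controls, and the difference did not pass (-3.04 ± 1.86, adjusted p = 0.342). Vwf, an endothelial and platelet glycoprotein, rose from 0.26, 0.29 and 0.19 to 3.39, 2.97 and 1.77 (2.46 ± 0.36, adjusted p = 0.00187), while 2 of 13 endothelial markers rose and 1 fell; none fell without any 1 of the 6 libraries except MYC mouse 4. Klra3, a member of the Ly49 receptor family whose genes are near copies of each other, was at 0.04, 0.04 and 0.15 against 5.83, 5.82 and 5.27. Osm, which encodes oncostatin M, was at 3.43, 3.99 and 4.76 against 6.44, 5.78 and 4.35 (1.46 ± 0.55, adjusted p = 0.108).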
